A study of Mus musculus with 4 samples.

Results

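Transcripts of 9 Hedgehog pathway genes were followed through the cell types of the adult mouse lung. The genes were the ligand Shh, the receptor Ptch1, the co-receptors Boc and Gas1, the signal transducer Smo, the transcription factors Gli1, Gli2 and Gli3, and the secreted-ligand antagonist Hhip. They were taken by gene symbol from the 57010 genes of the count matrix, and each symbol stood on 1 gene identifier. Cells came from C57Bl6/J mice at 8 weeks of age and were profiled with SPLiT-seq, which labels the transcripts of fixed cells by rounds of barcoding in wells. The Cre_Pos group was 1 pool of the lungs of 6 mice labelled Shh.Cre+/Flox-p73, with the floxed part of the p73 gene at exons 7 to 9. The Cre_Neg group was 1 pool of the lungs of 6 littermates labelled Shh.Cre-/Flox-p73 and homozygous for that floxed allele, so both groups carry the floxed allele and differ in Cre. Cre was driven from Shh, one of the genes measured here, and the sources used here do not say whether the Cre allele alters an Shh allele. Before barcoding, cells carrying CD45 were depleted, cells carrying Epcam were enriched and live cells were sorted, which sets part of every share of cells below. Both pools ran together through 4 sublibraries, which are technical aliquots and not replicate animals. With 1 pool per genotype the difference between genotypes had no replicate check and no test was made. Levels are in CPM, the counts of unique transcripts (UMIs) of a gene scaled to all UMIs of the same cells, and levels of different genes are not set against each other because they are not per length. Every interval is an exact 95% interval (Poisson for levels, Clopper-Pearson for shares, conditional binomial for ratios) and covers counting error only.

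Hedgehog ligands are lipid-modified proteins that bind Patched on neighbouring cells. Binding relieves the block of Patched on Smoothened at the primary cilium, and Gli2 and Gli3 are then processed less to repressors and more to activators, while Gli1 is switched on as a target and adds to the output. In the developing lung the epithelium makes Shh and the surrounding mesenchyme responds. Ptch1, Gli1 and Hhip are themselves targets of the pathway, and Ptch1 and Hhip act back as inhibitors by binding the ligand. Human HHIP lies near variants tied to lung function and to chronic obstructive pulmonary disease in genetic studies.

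Of 16579 barcodes with at least 500 genes, 16356 were kept as cells, 7696 Cre_Neg cells with a median of 8713.5 UMIs and 8660 Cre_Pos cells with a median of 8219 UMIs. Median depths ran from 7084 to 10368 UMIs over the 4 sublibraries of the 2 pools. Clusters were named from marker genes as 22 classes, written X-like, with 3 clusters left unnamed (25 classes in all), and 18 classes with at least 20 cells in each pool were compared. A well combination occurred in a pair of sublibraries for 574 of the barcodes with at least 500 genes, counted as separate barcodes. Trp73, the targeted gene, had levels of 85.8 (Cre_Neg) and 11.8 CPM (Cre_Pos) over the kept cells, and of 334 and 312 CPM within ciliated-like cells. These totals do not place UMIs on the floxed exons, so they do not check the deletion. The pools also differed in the sex of their cells, and not the same way in each class. Of AT2-like cells, 1417 Cre_Neg and 1117 Cre_Pos cells had Xist UMIs and none of 4 Y-linked genes, and 369 and 139 had the reverse. In blood endothelium-like cells these were 1934 and 4860 against 358 and 160, while in ciliated-like cells they were 882 and 3 against 177 and 101. Ciliated-like cells numbered 1201 in Cre_Neg and 120 in Cre_Pos.

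The ligand lay in a different lineage from Gli1, Gli2, Gas1 and Hhip. Epithelial cells held 51.1% of all UMIs and 99.8% (99.17 to 99.97) of the 868 Shh UMIs. Mesenchymal cells, 492 cells with 3.85% of all UMIs, held 90.8% (84.85 to 95.03) of the 142 Gli1 UMIs, 96.8% of the Gli2, 96.7% of the Gas1 and 98.6% of the Hhip UMIs. The other members were shared out more widely. Boc was 63.1% mesenchymal and 27.2% endothelial, and Gli3 was 84.3% epithelial and 10.1% mesenchymal. Ptch1 was 44.7% epithelial, 41.7% endothelial and 10.3% mesenchymal, and Smo was 40.4% epithelial, 40.1% endothelial and 18.3% mesenchymal. Ptch1 was the most widely detected member, with a UMI in 31.1% of kept cells, and Gli1 the least, with a UMI in 0.532%.

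**Figure D1:**
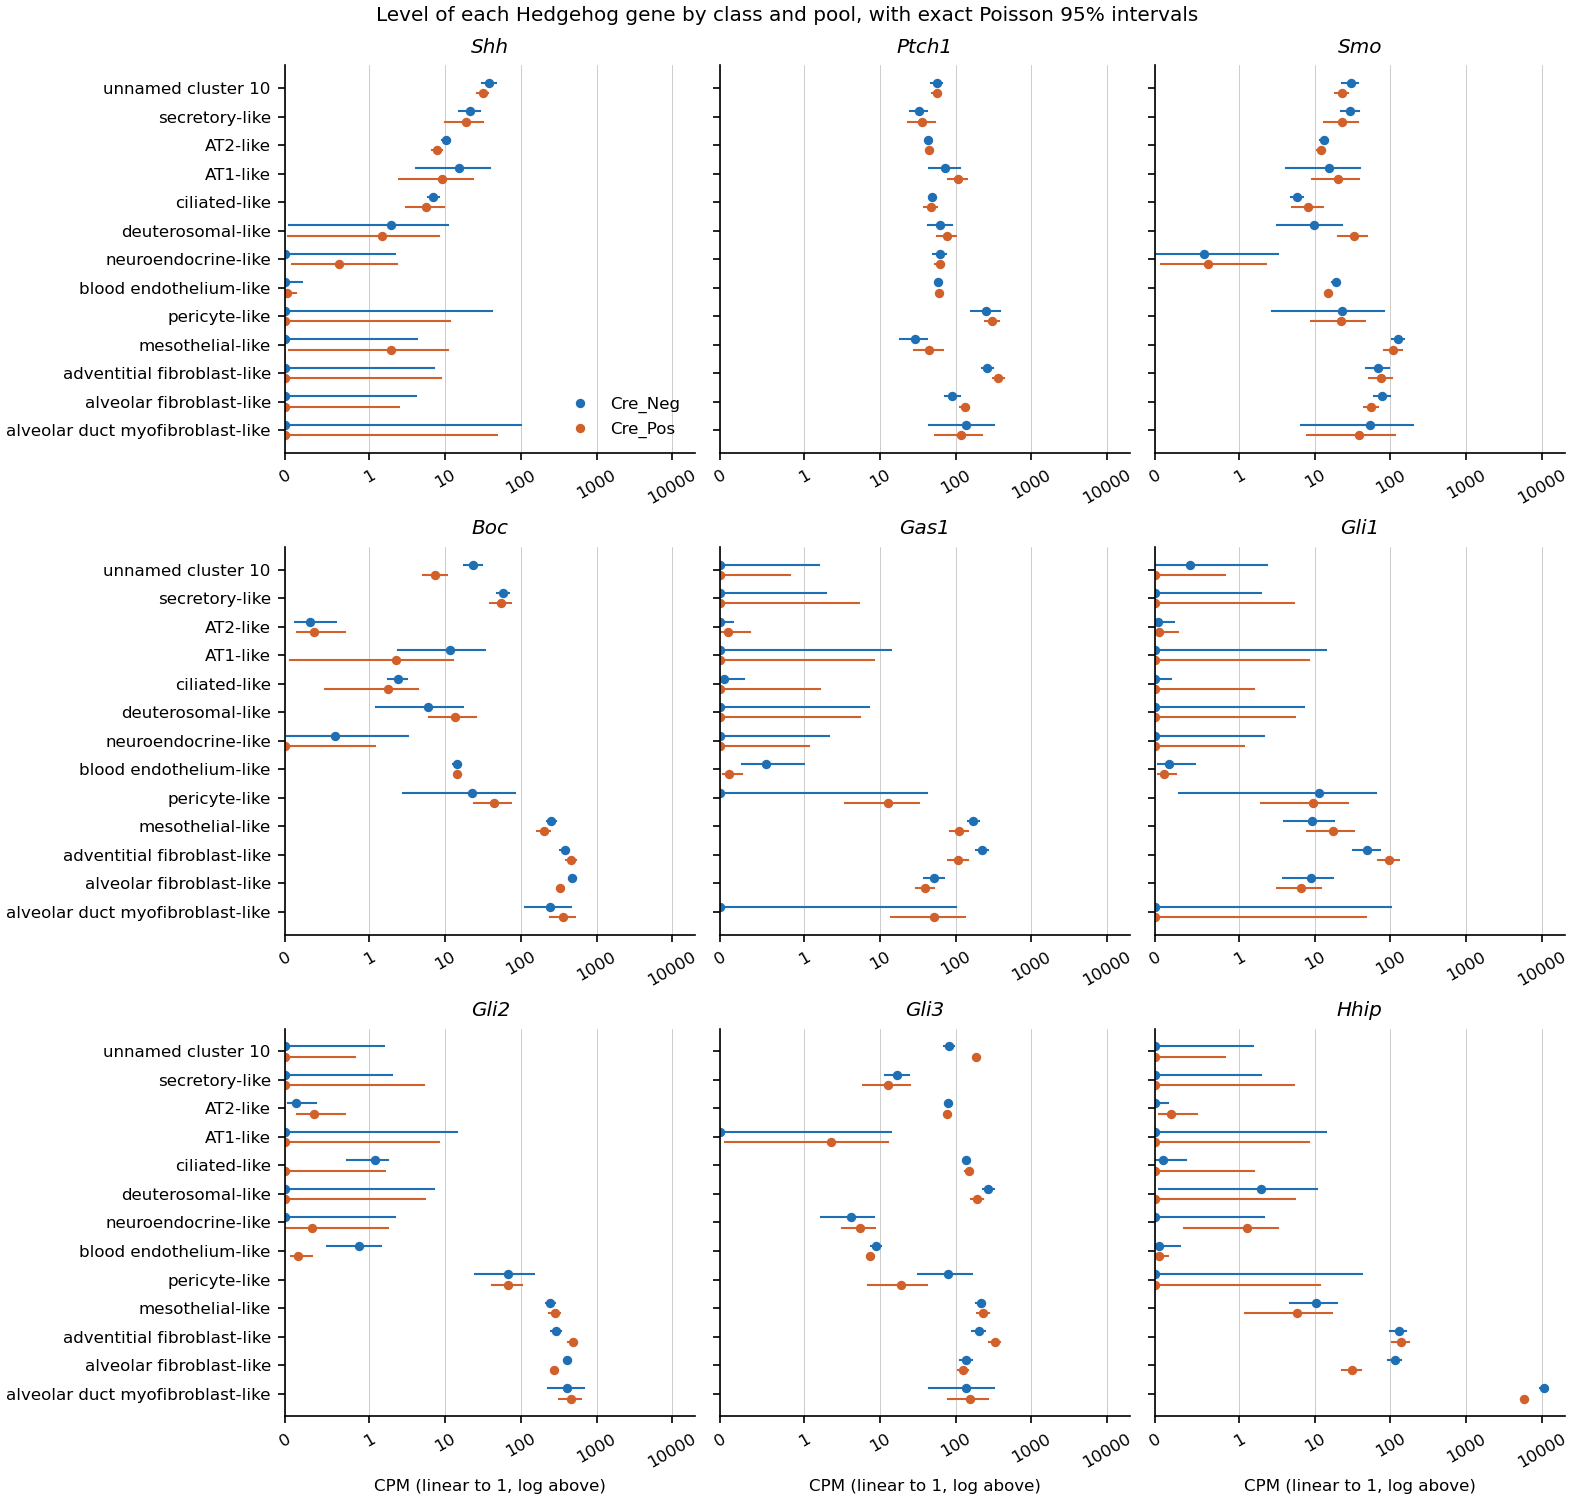
Level of each of the 9 genes (1 panel each) in 13 classes (rows), in CPM on an axis that is linear to 1 and logarithmic above, for Cre_Neg (blue) and Cre_Pos (orange), with exact Poisson 95% intervals as bars. Shh sits to the right in the upper, epithelial rows and Gli1, Gli2, Gas1 and Hhip in the lower, mesenchymal rows, with Hhip at 10526 and 5841 CPM in alveolar duct myofibroblast-like cells.

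Shh, the ligand, was highest in a cluster of 413 cells that was left unnamed, cluster 10, at 33.7 CPM (29.5 to 38.4), with 23.2 to 41.9 CPM over the sublibraries. Its leading genes were the club cell genes Scgb1a1, Cyp2f2, Cbr2 and Hp together with the surfactant genes Sftpa1 and Sftpb. All 9 alveolar type 2 (AT2) markers and 6 of 7 club cell markers passed there, so it was not given a cell type name. Secretory-like cells followed at 20.6 CPM (15.4 to 26.9). The interval of AT1-like cells, at 11.4 CPM from 8 UMIs, spanned the levels of its neighbours in this order. AT2-like cells, the surfactant-making class, were at 9.19 CPM (8.32 to 10.1) and ciliated-like cells at 6.85 CPM (5.80 to 8.03), and these intervals did not overlap. Secretory-like cells moved to 11.6 CPM under a stricter filter on genes per cell.

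Shh was sparse in single cells. A Shh UMI was seen in 34.1% of cluster 10 cells, 17.7% of secretory-like, 10.5% of AT2-like and 9.46% of ciliated-like cells, and no cell had more than 6. Thinned to 2000 UMIs per cell, the shares were 7.83%, 6.59%, 1.83% and 1.67%. Among blood endothelium-like cells, which serve as the background, 1 of 8412 cells had a Shh UMI at a median depth of 6730 UMIs, and after thinning 0 of 8021. No Shh UMI was seen in 15 of the 25 classes. Mesenchymal cells held 1 Shh UMI, in a mesothelial-like cell.

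Ptch1, the receptor that Hedgehog ligands bind and a target of the pathway, was highest in adventitial fibroblast-like cells at 309 CPM (275 to 347) and in pericyte-like cells at 294 CPM, whose intervals overlapped. Alveolar fibroblast-like cells were at 117 CPM. Epithelial and endothelial classes had lower values. AT1-like cells were at 94.1 CPM (72.8 to 120), an interval that overlapped that of alveolar fibroblast-like cells (103 to 131). Deuterosomal-like cells were at 70.8 CPM, neuroendocrine-like at 61.5 CPM and blood endothelium-like at 59.4 CPM. Cluster 10 was at 56.0 CPM, ciliated-like cells at 47.9 CPM and AT2-like cells at 44.2 CPM. Barcodes with at most 50 UMIs, which hold mostly free RNA, were at 47.6 (Cre_Neg) and 47.4 CPM (Cre_Pos). The part of free RNA in the low epithelial and endothelial levels was not tested. Immune classes were spread, with T cell-like cells at 67.7 CPM, plasma cell-like at 51.7 CPM, alveolar macrophage-like at 15.9 CPM and monocyte-like at 3.66 CPM. The unnamed mesenchymal sub-cluster 6 (35 cells) was at 158 CPM (129 to 192). Mesenchymal cells were not all high, with mesothelial-like cells at 34.6 CPM.

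Boc, a co-receptor that presents ligand to Patched, was highest among named classes in adventitial fibroblast-like cells, at 416 CPM, and was at 385 CPM in alveolar fibroblast-like cells, at 324 CPM in alveolar duct myofibroblast-like cells and at 234 CPM in mesothelial-like cells, the lining of the lung surface. Secretory-like cells were the highest named epithelial class at 57.5 CPM, while AT2-like cells held 14 Boc UMIs in all. Within the endothelial class, 35 cells with lymphatic markers were at 57.5 CPM and the other cells at 14.0 CPM. Boc in barcodes with at most 50 UMIs was at 19.0 (Cre_Neg) and 17.1 CPM (Cre_Pos), above that last level, and the part of free RNA in the endothelial share was not tested. Gas1, a membrane-anchored co-receptor, was at 173 CPM in adventitial fibroblast-like, 149 CPM in mesothelial-like and 44.3 CPM in alveolar fibroblast-like cells. Blood endothelium-like cells held 15 Gas1 UMIs. The order of classes thus differed between the co-receptors in that mesothelial-like cells stood above alveolar fibroblast-like cells for Gas1 and below them for Boc.

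Smo, the transducer that Patched holds in check, was highest in mesothelial-like cells at 120 CPM, followed by adventitial fibroblast-like cells at 71.8 CPM and alveolar fibroblast-like cells at 64.1 CPM. It was also read in secretory-like cells at 27.6 CPM, cluster 10 at 25.4 CPM, blood endothelium-like cells at 16.0 CPM and AT2-like cells at 12.7 CPM. Barcodes with at most 50 UMIs were at 13.5 (Cre_Neg) and 14.8 CPM (Cre_Pos), close to the last 2 levels, and the part of free RNA in them was not tested.

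Gli1, the Gli factor that is itself a target, had 67 of its 142 UMIs in 64 adventitial fibroblast-like cells, which wrap airways and vessels. The level there was 70.7 CPM (54.8 to 89.8), from 60.1 to 76.2 CPM over the sublibraries, and 30 of the 64 cells had a Gli1 UMI. Among other named classes, mesothelial-like cells were at 12.3 CPM from 17 UMIs, pericyte-like cells at 9.96 CPM from 4 UMIs and alveolar fibroblast-like cells at 7.45 CPM from 18 UMIs. The last level depended on the clustering, with 1.96 CPM at resolution 2. Alveolar duct myofibroblast-like and ciliated-like cells, 17 and 1321 cells, held no Gli1 UMI, with upper bounds of 32.3 and 0.167 CPM. The first bound lies above the mesothelial-like, pericyte-like and alveolar fibroblast-like levels.

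Among the named classes Gli2, the main activator of the pathway, was at 438 CPM in alveolar duct myofibroblast-like, 379 CPM in adventitial fibroblast-like, 325 CPM in alveolar fibroblast-like and 258 CPM in mesothelial-like cells. Alveolar fibroblast-like cells were uneven: 3 sub-clusters of mesenchymal cells that made up this class were at 163, 525 and 263 CPM. Gli3, which works largely as a repressor, had a different distribution. It was at 259 CPM in adventitial fibroblast-like, 220 CPM in mesothelial-like, 149 CPM in alveolar duct myofibroblast-like and 131 CPM in alveolar fibroblast-like cells. Epithelial classes with Gli3 were deuterosomal-like cells (precursors of ciliated cells) at 226 CPM, cluster 10 at 150 CPM and ciliated-like cells at 137 CPM. Dividing AT2-like cells were at 135 CPM and AT2-like cells at 78.6 CPM. Secretory-like cells were at 15.9 CPM, neuroendocrine-like cells at 4.94 CPM, and AT1-like cells held 1 Gli3 UMI. Deuterosomal-like cells were shallow, at a median of 1334 UMIs, and 31.5% of them had a Gli3 UMI, against 70.4% of ciliated-like cells. In barcodes with at most 50 UMIs Gli3 was at 63.7 (Cre_Neg) and 53.1 CPM (Cre_Pos), and its part in the AT2-like level was not tested. AT2-like and ciliated-like cells had Gli3 UMIs with hardly any of Gli1, which had 2 UMIs in AT2-like cells.

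A small unnamed group, mesenchymal sub-cluster 7 with 34 cells, was rich in Boc and Gli2. It was led by C7, Dcn and Nebl and passed 7 of 8 adventitial fibroblast markers, but its leading genes held as many markers of alveolar fibroblasts, so it has no type name. Its Boc level of 747 CPM (675 to 824) and its Gli2 level of 544 CPM (483 to 611) were the highest of all 25 classes. Gli1 was at 39.7 CPM (24.6 to 60.7; 13 of 34 cells), second to adventitial fibroblast-like cells, with which its interval overlapped. Gas1 was at 123 CPM and Ptch1 at 153 CPM, below adventitial fibroblast-like cells. The 23 Hhip UMIs of the group all came from its 20 Cre_Neg cells and none from its 14 Cre_Pos cells, too few cells in the latter for a ratio.

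Hhip, the antagonist that binds Hedgehog ligands at the cell surface, was concentrated in very few cells. Of its 1173 UMIs, 839 (71.5%) lay in 17 alveolar duct myofibroblast-like cells, the contractile mesenchyme of alveolar entrance rings, at 7350 CPM (6861 to 7865). All 17 cells had Hhip UMIs, and so did 16 of 16 cells after thinning to 2000 UMIs. The 4 Cre_Neg cells had 46, 87, 102 and 152 UMIs and the 13 Cre_Pos cells from 8 to 126. The level was 10526 CPM in the first pool and 5841 CPM in the second, with too few cells for a ratio. The sublibraries gave 255, 376, 76 and 132 of these UMIs, so the class was present in each of the 4 aliquots.

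Hhip was used neither to cluster these cells nor to name them. The naming thresholds and the sub-clustering that set the class apart were, however, chosen with earlier results of these data known. The name of the class rests on 6 of 7 markers that passed, Aspn, Lgr6, Tgfbi, Mustn1, Fgf18 and Lgr5. The seventh, Pdgfra, was seen in 3 of 17 cells at 149 CPM, against 1530 CPM in the other fibroblast-like cells. Of 7 smooth muscle markers 6 were seen, with Myocd in 10 cells, Acta2 in 8 and Myh11 in 6, and Cnn1 at 0. Among other cells Hhip was at 132 CPM in adventitial fibroblast-like and 62.5 CPM in alveolar fibroblast-like cells, and mesothelial-like cells held 12 UMIs. Pericyte-like cells and cluster 10 held none, and AT2-like cells 4 UMIs. In all, 32 cells with at least 5 Hhip UMIs held 1052 of the UMIs (89.7%).

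**Figure D2:**
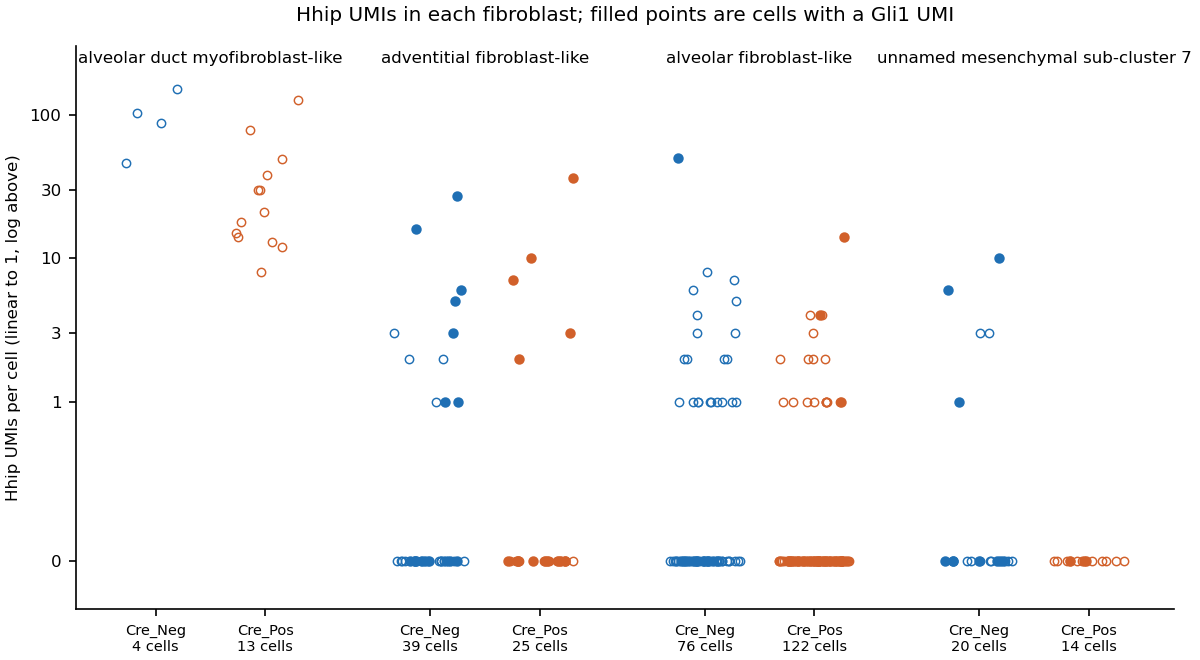
Hhip UMIs in each cell (points) of 3 fibroblast classes and the unnamed mesenchymal sub-cluster 7, by pool, on an axis that is linear to 1 and logarithmic above, with cells that have a Gli1 UMI filled. The 17 alveolar duct myofibroblast-like cells have 8 to 152 UMIs and none is filled, and 1 filled alveolar fibroblast-like Cre_Neg cell stands above its class at 50 UMIs.

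Ptch1 and Hhip are both pathway targets, and both were higher in those adventitial fibroblast-like cells in which Gli1 was detected. The same contrast could not be made in alveolar duct myofibroblast-like cells, which held most Hhip UMIs and no Gli1 UMI. With 17 cells, their Gli1 level is bounded only to between 0 and 32.3 CPM. In adventitial fibroblast-like cells, Ptch1 was at 477 CPM in the 30 cells with a Gli1 UMI and at 131 CPM in the 34 cells without, a log2 ratio of 1.86 (1.45 to 2.30). Hhip was at 239 and 17.4 CPM, a log2 ratio of 3.78 (2.75 to 5.02). Without the cell richest in each, the ratios were 1.69 and 3.29. These were 2 of 7 members at least 2-fold higher, against 5.69% of 6275 genes higher in the same contrast, and none was 2-fold lower, against 6.55%. The other members differed less: Boc was at 0.56, Smo at 0.33, Gli2 at 0.21, Gli3 at -0.29 and Gas1 at -0.52 on the log2 scale. Cells with a Gli1 UMI were deeper, with a median of 16712.5 against 12049.5 UMIs, and the part of depth in the contrast was not tested. The contrast held in both pools for Ptch1, at 1.09 in Cre_Neg and 3.67 in Cre_Pos, and for Hhip, at 3.31 in Cre_Neg and with 58 against 0 UMIs in Cre_Pos.

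In alveolar fibroblast-like cells, 15 cells had a Gli1 UMI and 183 did not, at median depths of 14984 and 11795 UMIs. Hhip was at 301 and 37.5 CPM (log2 ratio 3.00), but 1 cell held 50 Hhip UMIs, and without it the ratio was 1.28 (0.48 to 2.01). Ptch1 was at 205 and 107 CPM (0.93), and without its richest cell at 0.49 with an interval that included 0. Gli2 was higher by 1.15 and Gas1 by 1.04, and Gli3 was lower, at -1.18. Thus 3 of 7 members were at least 2-fold higher and 1 lower, against 7.18% and 11.5% of all genes tested. The sub-clusters of this class, of 75, 63 and 60 cells, held 0, 15 and 3 Gli1 UMIs. Gas1 was at 14.6, 89.4 and 22.5 CPM in them, and Hhip at 14.6, 107 and 61.8 CPM. The part of this make-up in the contrast was not tested.

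**Figure D3:**
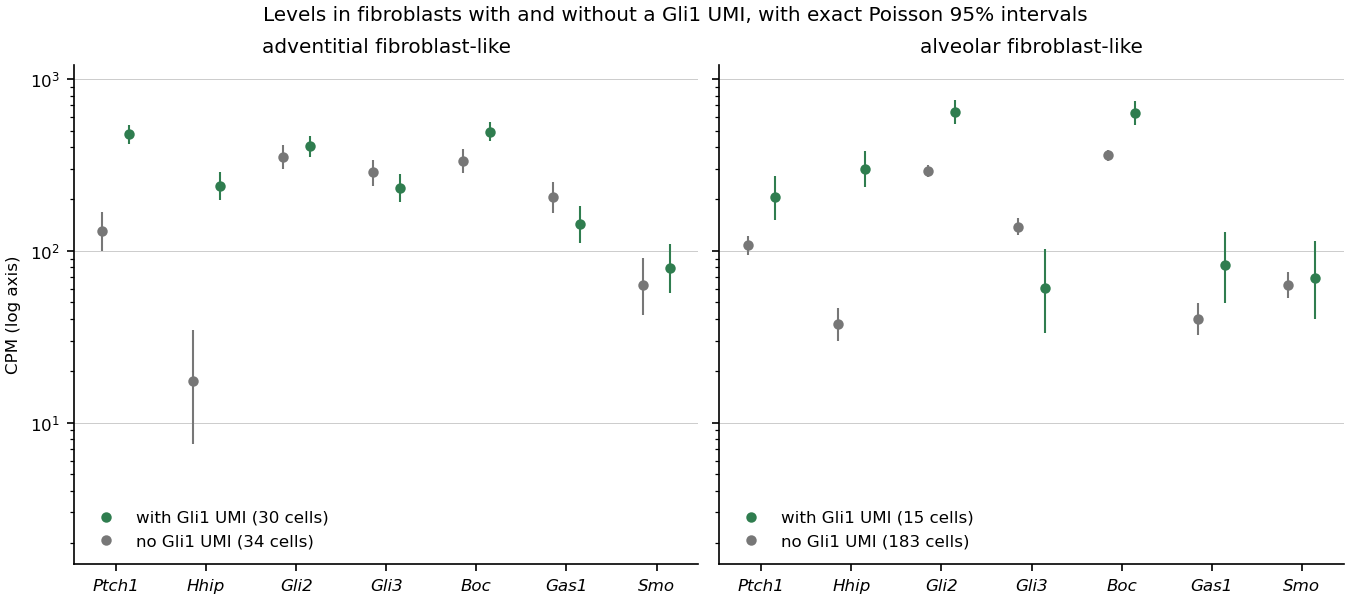
Level of 7 members in the summed cells with (green) and without (grey) a Gli1 UMI, in adventitial (left) and alveolar (right) fibroblast-like cells, in CPM on a log axis with exact Poisson 95% intervals as bars. Hhip in adventitial fibroblast-like cells is at 239 CPM with and 17.4 CPM without a Gli1 UMI, and the Gli2, Gli3 and Smo intervals there overlap.

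The bases upstream of Ptch1 and Hhip are shown because both were higher in adventitial fibroblast-like cells with a Gli1 UMI. They run up to the start of each gene, on the gene's minus strand and 5′ to 3′, from RefSeq on GRCm38.p6, and capitals mark GGGCGG, the core of the GC box bound by Sp factors, or its reverse complement. The Hhip window is chr8:80058061-80058258 (198 bases, 82.3% GC) and the Ptch1 window chr13:63565736-63565985 (250 bases, 78.4% GC).
Hhip: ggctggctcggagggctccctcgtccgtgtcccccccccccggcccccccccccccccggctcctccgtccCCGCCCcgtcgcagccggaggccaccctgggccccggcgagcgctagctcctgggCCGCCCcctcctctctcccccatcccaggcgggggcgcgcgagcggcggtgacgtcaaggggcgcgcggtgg
Ptch1: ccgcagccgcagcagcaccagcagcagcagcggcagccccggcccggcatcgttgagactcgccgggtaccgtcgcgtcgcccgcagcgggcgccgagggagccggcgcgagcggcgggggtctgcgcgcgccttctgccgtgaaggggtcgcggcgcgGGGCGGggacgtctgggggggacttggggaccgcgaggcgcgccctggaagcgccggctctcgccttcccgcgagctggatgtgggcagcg
The core motif of Gli factors, GACCACCCA on either strand, was in neither window, in 0 of the 6 members' windows and in 0.225% of 32851 windows of all genes. GGGCGG on either strand was in 5 of the 6 (Hhip, Ptch1, Gli2, Gli3 and Gas1, and not Smo) and in 32.7% of all windows. Matches describe letters in these windows only.

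Between the pools, a ratio was given where a member had at least 20 UMIs in a class over both pools, except Gli2 in ciliated-like cells, where a pool at 0 UMIs left no bound. Of 59 such log2 ratios (Cre_Pos over Cre_Neg), 3 were at least 2-fold higher and 4 at least 2-fold lower in Cre_Pos, the median was -0.07, and the medians of all genes lay between -0.06 and 0.12 over these classes. The interval lay above 0 for 8 and below 0 for 11. The share of all genes with such intervals was not computed, so these 2 counts do not set the members apart from other genes. The members differing 2-fold were Gli3 and Boc in cluster 10 (2 of 5 members, against 8.97% of all genes there), Hhip in alveolar fibroblast-like cells (1 of 7, 6.76%), Gas1 in adventitial fibroblast-like cells (1 of 8, 11.3%), Gli2 in blood endothelium-like cells (1 of 5, 4.57%), Smo in deuterosomal-like cells (1 of 3, 10.5%) and Gli3 in dividing NK cell-like cells (1 of 2, 20.2%). No member reached 2-fold in AT2-like cells (0 of 4, 2.65%), nor in the 9 remaining classes with a ratio. The shares of all genes in those were 9.17% in AT1-like, 8.87% in B cell-like, 13.4% in T cell-like, 7.78% in ciliated-like, 8.49% in dividing AT2-like, 13.5% in interstitial macrophage-like, 12.8% in mesothelial-like, 5.35% in neuroendocrine-like and 9.15% in secretory-like cells.

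**Figure D4:**
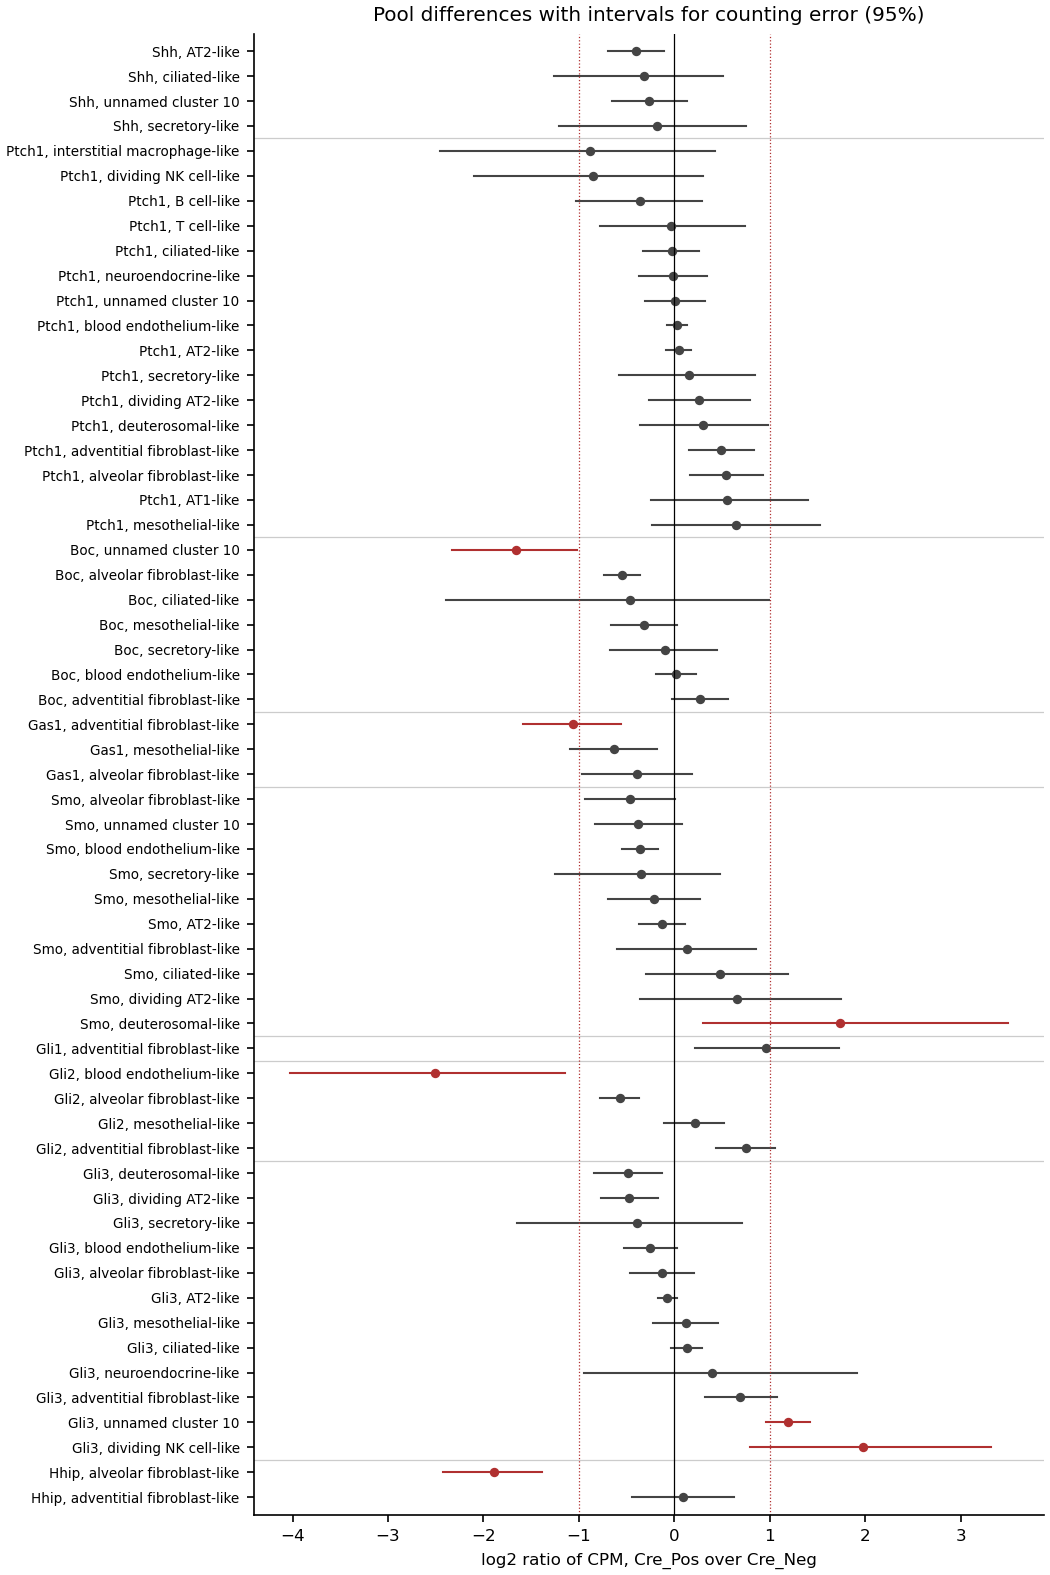
Log2 ratio of CPM (Cre_Pos over Cre_Neg) for each of the 59 combinations of gene and class with a ratio (points), with exact 95% counting intervals as bars, dotted lines at 2-fold and ratios past them in red. Gli3 in cluster 10 stands at 1.19 and Hhip in alveolar fibroblast-like cells at -1.89, while the Ptch1 ratios all lie within the dotted lines.

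The ligand was slightly lower in the Cre_Pos pool in each epithelial class with a ratio. In AT2-like cells Shh was at 10.3 CPM (248 UMIs, 1988 cells) in Cre_Neg and 7.83 CPM (160 UMIs, 1371 cells) in Cre_Pos, a log2 ratio of -0.40 (-0.70 to -0.11). Over the sublibraries Cre_Neg was at 11.1, 9.97, 10.6 and 9.83 CPM and Cre_Pos at 8.90, 8.24, 6.54 and 7.58 CPM, so the aliquots of the pools did not overlap. The clusters joined in this class were not alike. Cre_Neg and Cre_Pos were at 10.6 and 6.63 CPM in a cluster of 1315 cells and at 13.4 and 8.61 CPM in one of 856 cells. In a cluster of 1188 cells the direction was the other, at 7.71 and 8.67 CPM. Only the intervals of the first pair did not overlap. Thinned to 2000 UMIs, 2.33% (1.70 to 3.11) of Cre_Neg and 1.11% (0.623 to 1.83) of Cre_Pos AT2-like cells had a Shh UMI. Cluster 10 was at 37.8 and 31.5 CPM (-0.26, interval -0.65 to 0.14), secretory-like cells at 21.3 and 18.7 CPM (-0.18) and ciliated-like cells at 6.99 and 5.63 CPM (-0.31), with intervals that included 0. In barcodes with at most 50 UMIs Shh was at 6.21 and 3.14 CPM, a difference in the same direction whose part in the result was not tested.

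Cluster 10 had the members that differed most clearly among epithelial cells. Gli3 was at 81.9 CPM (195 UMIs) in Cre_Neg and 187 CPM (830 UMIs) in Cre_Pos, which gave a log2 ratio of 1.19 (0.96 to 1.42). The sublibraries were at 63.0, 99.6, 54.0 and 96.9 CPM in Cre_Neg and 149, 180.1, 210.4 and 213 CPM in Cre_Pos, with no overlap. Boc was at 23.5 CPM (56 UMIs) and 7.44 CPM (33 UMIs), at -1.66 (-2.33 to -1.02), and was higher in Cre_Pos in sublibrary 3. Without sublibrary 2, Boc was at -1.04. Ptch1 was at 55.9 and 56.1 CPM there (0.01, interval -0.30 to 0.32). The cells of the cluster were not alike in the 2 pools: AT2 markers summed to 6406 CPM in Cre_Neg and 10247 CPM in Cre_Pos, with 8 of 9 higher, and club markers to 25052 and 13738 CPM, with 6 of 7 lower. In the sublibraries the AT2 sums were 4705 to 8143 and 9940 to 10506 CPM. The part of this mixture in the Gli3 and Boc differences was not tested. In AT2-like cells themselves Gli3 was at 80.4 and 76.5 CPM (-0.07, interval -0.17 to 0.02).

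In adventitial fibroblast-like cells, 39 Cre_Neg and 25 Cre_Pos cells, members lay on either side of 0, with a median of 0.38 over 8 ratios against -0.02 over all genes. Gli1 was at 49.7 CPM (26 UMIs) in Cre_Neg and 96.6 CPM (41 UMIs) in Cre_Pos, at 0.96 (0.22 to 1.73). Its sublibraries were at 47.5, 48.2, 66.1 and 13.2 CPM in Cre_Neg and 124, 73.0, 85.3 and 111 CPM in Cre_Pos and did not overlap. Gli2 was at 291 and 488 CPM (0.75, interval 0.44 to 1.06), higher in all 4 sublibraries with overlapping ranges. Gli3 was at 203 and 328 CPM (0.69), but at 0.20 without sublibrary 3, at 1.42 without sublibrary 4 and at 0.05 among cells with Xist UMIs only. Ptch1 was at 262 and 368 CPM (0.49), which turned to -0.23 without sublibrary 4 and reached 1.60 without sublibrary 3. Gas1 was lower, at 226 and 108 CPM (-1.06, interval -1.58 to -0.55), in 4 of 4 sublibraries, but was at -0.62 without sublibrary 1, at -0.93 without sublibrary 4 and at -0.74 among cells with Xist UMIs only, short of 2-fold. Hhip (0.09), Smo (0.13) and Boc (0.27) had intervals that included 0. Each aliquot of this class holds a handful of cells, which limits all of these values.

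**Figure D5:**
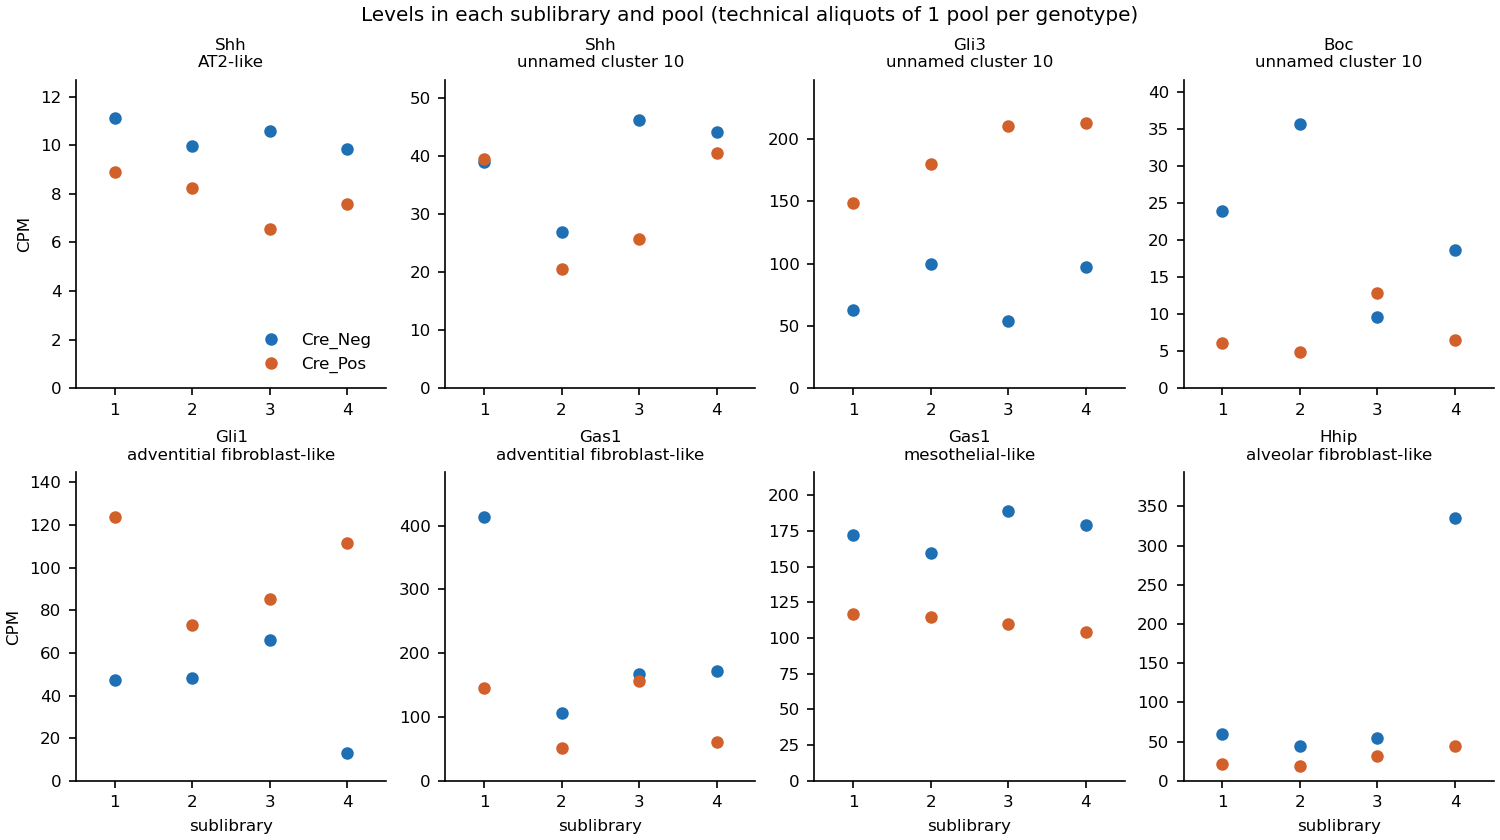
Level in CPM in each of the 4 sublibraries (horizontal axis) of Cre_Neg (blue) and Cre_Pos (orange), 1 panel for each of 8 combinations of gene and class. Gli3 in cluster 10 spans 54.0 to 99.6 CPM in Cre_Neg and 149 to 213 CPM in Cre_Pos without overlap, and Hhip in alveolar fibroblast-like cells has 1 high Cre_Neg aliquot, sublibrary 4.

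Alveolar fibroblast-like cells, 76 Cre_Neg and 122 Cre_Pos cells, had most members lower in Cre_Pos, with a median of -0.47 over 7 ratios against 0.01 over all genes. Gli2 was at 409 and 275 CPM (-0.57, interval -0.78 to -0.37), and at -0.03 among the 6 and 2 cells with Y-linked UMIs only. Boc was at 479 and 329 CPM (-0.54, interval -0.73 to -0.35). Hhip was at 115 CPM (104 UMIs) and 31.0 CPM (47 UMIs), at -1.89 (-2.42 to -1.38), of which 1 Cre_Neg cell held 50 UMIs. Without that cell the ratio was -0.98, and without sublibrary 4 it was -1.13. Ptch1 alone was higher, at 90.8 and 132 CPM (0.54), but at 0.03 under a stricter filter on genes per cell and at -2.04 among the same few cells. The sub-clusters with Gli2 at 163, 525 and 263 CPM, which were also at 14.6, 107 and 61.8 CPM for Hhip, held 23, 33 and 20 Cre_Neg and 52, 30 and 40 Cre_Pos cells. The part of that make-up in the Gli2 and Hhip differences was not tested.

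Other classes gave few differences. Gas1 in mesothelial-like cells was at 172 and 111 CPM (-0.63, interval -1.10 to -0.18), with sublibraries from 160 to 189 CPM in Cre_Neg and from 104 to 117 CPM in Cre_Pos and no overlap. Ptch1 in blood endothelium-like cells, the largest class with 2767 and 5645 cells, was at 58.5 and 59.8 CPM (0.03, interval -0.07 to 0.13), and Boc at 14.3 and 14.4 CPM. Smo there was at 18.9 and 14.8 CPM (-0.36, interval -0.55 to -0.17), with overlapping sublibraries. Gli2 in that class rested on 16 and 7 UMIs (-2.50), 11 of the 16 in sublibrary 2, and was at -1.61 without it and at 0.42 among cells with Y-linked UMIs only. Smo in deuterosomal-like cells rested on 5 and 22 UMIs (1.74, interval 0.30 to 3.50) and was at 1.00 under a stricter filter on genes per cell. Gli3 in dividing NK cell-like cells rested on 8 and 27 UMIs (1.97), was at 1.21 without sublibrary 3 and 4.78 without sublibrary 4, and lay in a class that also held endothelial markers at 950 and 3166 CPM. Gli3 was lower in deuterosomal-like (-0.49) and dividing AT2-like (-0.47) cells with intervals below 0. Gli2 in ciliated-like cells had 23 Cre_Neg UMIs and none in Cre_Pos, and the smaller number of Cre_Pos cells gave no bound on a ratio.

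The rest of the pathway was read from 39 further genes in 4 lists. The share of all genes highest in each lineage was not computed. The counts of genes by lineage that follow describe the lists only. Of 8 genes that make or release ligand, 4 were highest in mesenchyme, 3 in endothelium and 1 in epithelium. The other ligands were scarce: Ihh had 33 UMIs, 23 of them in ciliated-like cells, and Dhh had 275 of 286 UMIs in blood endothelium-like cells at 4.30 CPM. Disp1, which releases the ligand from the cell, was highest in mesothelial-like cells at 154 CPM, and Scube2, which helps to carry it, in alveolar fibroblast-like cells at 741 CPM. Of 4 other receptors and co-receptors 3 were highest in mesenchyme. Cdon, the relative of Boc, was at 778 CPM in mesothelial-like and 534 CPM in adventitial fibroblast-like cells. Gpc3, a glypican that binds ligand, was at 1250.3 and 993 CPM in the same classes.

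Of 17 genes of ciliary and cytoplasmic signal transduction 9 were highest in epithelium, among them Ift88, needed to build cilia, at 481 CPM and Stk36 at 177 CPM in ciliated-like cells. Evc and Evc2, which act with Smo in the cilium, were at 64.4 and 101 CPM in adventitial fibroblast-like cells. Of 10 mesenchymal targets 5 were highest in mesenchyme. Osr1 and Sfrp1 were at 221 and 173 CPM in adventitial fibroblast-like cells, Foxl1 at 7.39 CPM there, and Foxf1 at 221 CPM in blood endothelium-like cells. Bmp4 was at 42.3 CPM in dividing AT2-like cells and 38.9 CPM in cluster 10.

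Between the pools the 39 genes gave 351 ratios, 17 at least 2-fold higher and 18 at least 2-fold lower in Cre_Pos, with a median of 0.00. Over the classes with a member ratio, the share of all genes at 2-fold ran from 2.65% to 20.2%. These totals therefore do not set the lists apart from all genes. In cluster 10, 5 of 25 (against 8.97% of all genes there) reached 2-fold, all of them higher: Gpc3 (3.41, from 4 and 79 UMIs), Lrp2 (1.43, 210 and 1056 UMIs), Bmp4 (1.14), Tulp3 (1.10) and Osr1 (1.03). Lrp2, a large endocytic receptor that can take up Shh, was at 594 CPM in AT2-like cells. In AT2-like cells Scube1 was higher (1.45, 9 and 21 UMIs) and Scube2 (-1.19) and Evc2 (-1.09) lower, 3 of 29 against 2.65%. In adventitial fibroblast-like cells Ift88 (1.52) and Tulp3 (1.49) were higher and Hhat (-1.09), the enzyme that adds palmitate to the ligand, lower, 3 of 21 against 11.3%. In alveolar fibroblast-like cells Hhat was higher (1.63) and Cdon lower (-1.12), 2 of 27 against 6.76%.

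In ciliated-like cells Lrp2 was higher (3.42, 20 and 25 UMIs), and Gpc3 (-2.74, 57 and 1 UMIs), Sfrp1 (-2.15, 38 and 1 UMIs) and Disp2 (-1.76, 29 and 1 UMIs) lower, 4 of 29 against 7.78%. In this class 882 Cre_Neg and 3 Cre_Pos cells had Xist UMIs only, and 177 and 101 had Y-linked UMIs only. The part of sex in these ratios was not tested. In blood endothelium-like cells Sfrp1 had 23 and 1 UMIs (-5.83, interval -11.2 to -3.21), 1 of 34 against 4.57%. Among other epithelial classes the genes at least 2-fold higher were Gpc3 in AT1-like (1.24), Sufu in deuterosomal-like (1.19) and Hhat in secretory-like (1.32) cells. Those lower were Hhat (-1.42) and Efcab7 (-1.77) in dividing AT2-like cells, Scube2 (-1.22) and Osr1 (-1.16) in neuroendocrine-like cells and Lrp2 in secretory-like cells, which had 23 Cre_Neg UMIs and none in Cre_Pos (a bound of -1.50 against a floor of 3 counts). In mesothelial-like cells Sfrp1 was higher (1.50). In immune classes these were Ift88 (1.76) and Ccnd2 (-1.57) in B cell-like, Foxf1 (1.30), Disp1 (-1.54) and Cdon (-1.71) in dividing NK cell-like, and Arl13b (1.17), Lrp2 (-1.99) and Ccnd2 (-1.04) in interstitial macrophage-like cells. Most of these rest on few UMIs and have no replicate check. The lists gave 10 ratios in AT1-like, 15 in deuterosomal-like, 19 in secretory-like, 20 in dividing AT2-like and 22 in neuroendocrine-like cells. The shares of all genes at 2-fold there were 9.17%, 10.5%, 9.15%, 8.49% and 5.35%. Mesothelial-like cells had 24 ratios, B cell-like 16, dividing NK cell-like 14 and interstitial macrophage-like 13. Their shares of all genes were 12.8%, 8.87%, 20.2% and 13.5%.

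The genes whose level over 21 classes was most like that of each member were ranked by Pearson's r of log2(CPM + 10) over 15345 genes, as a description. The classes share libraries, and r is led by the few classes where a member is high. Gli2 went with Chrdl1 (0.997), Col1a2 (0.995) and Col3a1 (0.993), the latter pair fibrillar collagens of fibroblasts. Gli1 went with Abcc9 (0.965), Fbln1 and Galnt15 (both 0.950), and Gas1 with Gabra3 (0.987), Cpxm1 (0.983) and Sema3d (0.980). Hhip went with Itgbl1 and Srpx (both 0.988) and Galnt17 (0.987). Shh went with Slc4a5 (0.957), Fgfbp1 (0.952) and Mecomos (0.938), and Boc with Serping1 (0.950), Armh4 (0.944) and C1ra (0.934). Smo went with Poglut3 (0.902), Boc (0.883) and Evc2 (0.880). The widely read members had lower values, Gli3 with Slit2 (0.875), Gm11266 (0.857) and Bicc1 (0.822) and Ptch1 with Tgds (0.859), Klhl8 (0.858) and Gm30122 (0.855). Among the members themselves, Gli2 and Gas1 (0.955) and Gli2 and Boc (0.923) were the most alike pairs.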

How the data were processed

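The authors deposited raw counts, whole UMIs per barcode and gene without normalization, with a cell table that names each barcode's pool and well. The matrix held 647296 barcodes and 191160309 UMIs. Aligner and counter were not given in the sources used here. The submitters' processing notes name GRCm39, while the deposited gene table names mm10, so only RefSeq windows carry coordinates. Strand is not stated, and genes overlap Shh, Gli1, Gli2, Gli3, Hhip, Smo and Boc in RefSeq (Gli1 overlaps Arhgap9), whose UMIs may be shared.

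Kept barcodes had 500 genes or more and no more than 15% of mitochondrial UMIs, less 185 Scrublet doublets (1.12%), leaving 16356 of 20000 cells stated by the study. Cells were clustered without the members and pathway lists (2990 variable genes, 30 components, 15 neighbours, Leiden resolution 1, giving 34 clusters; Python 3.11.15, pandas 2.3.3, numpy 2.4.6, anndata 0.12.19, scipy 1.17.1, igraph 0.11.9, scanpy 1.11.5, matplotlib 3.10.9, leidenalg 0.10.2, scikit-learn 1.9.0). A cluster was named when at least 3 markers of a type were at least 4-fold over the median cluster (CPM + 10) and in at least 10% of cells, out of 40 marker sets. Mesenchymal cells were clustered again by themselves, and their sub-clusters were named over the 25th percentile of sub-clusters, a looser reference than the median. UMIs were summed per class and pool. Ratios need 20 UMIs, 2-fold was the size named, and a pool at 0 was set to 3 counts as a floor. Interval code was tested on simulated data. All other pathway genes with a 2-fold ratio are named, with the highest levels by class and the 3 genes most like each member among those with at least 200 UMIs. Members, lists, naming thresholds and sub-clustering were chosen with earlier results of these data known. 1 pathway gene counted in the lists is not reported here by itself.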

Additional observations from a re-analysis of the deposited data

Results flagged for a closer look

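In 63 sets of 4 sublibrary levels, 5 had 1 aliquot far from the other 3, by Dixon's 95% criterion for the gap over the range, which chance meets in about 1 in 20 sets. Gli3 in adventitial fibroblast-like cells was at 178 CPM in sublibrary 1 and 276 to 293 CPM in the others. Gli3 in deuterosomal-like cells was at 333 CPM in sublibrary 3 and 192 to 205 CPM in the others. In blood endothelium-like cells Gli3 was at 10.04 CPM in sublibrary 2 and 6.62 to 7.19 CPM in the others. Hhip in alveolar fibroblast-like cells was at 125 CPM in sublibrary 4, which holds the Cre_Neg cell with 50 UMIs, and at 30.1 to 43.7 CPM in the others. Boc in cluster 10 was at 17.3 CPM in sublibrary 2 and 10.8 to 11.8 CPM in the others.

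Gli2 differed between the pools in opposite directions by class, in all 4 sublibraries each: the log2 ratio of Cre_Pos over Cre_Neg was 0.75 in adventitial fibroblast-like cells, -0.57 in alveolar fibroblast-like cells and -2.50 in blood endothelium-like cells, the last from 23 UMIs. Among cells with Y-linked UMIs only, the second was at -0.03 and the third at 0.42. The difference between the classes was not tested.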

How the results depend on the processing

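Over 51 results and their alternatives, 447 of 524 values stayed within the counting interval of the reported value (for the count of ratios, within 1.5 times), 76 moved beyond it and 1 difference of at least 2-fold turned direction, and for these the cause was not tested. Of the differences between the pools of any size, 3 turned direction under an alternative: Gli2 in blood endothelium-like cells (0.42 among cells with Y-linked UMIs only), Ptch1 in adventitial fibroblast-like cells (-0.23 without sublibrary 4) and Ptch1 in alveolar fibroblast-like cells (-2.04 among cells with Y-linked UMIs only). The Hhip share in alveolar duct myofibroblast-like cells ran from 65.4% to 76.0% when each sublibrary was left out. The Shh ratio in AT2-like cells was -0.88 among cells with Y-linked UMIs only and -0.46 to -0.32 with each sublibrary left out. The epithelial share of Shh was 100% with only the filter of at least 500 genes, and the mesenchymal share of Gli1 was 89.3% to 92.1% over left-out sublibraries. At resolution 2, alveolar fibroblast-like cells were at 209 CPM for Gli2 and 36.5 CPM for Hhip. Of 16 differences between the pools recomputed in cells with Y-linked UMIs only, 11 moved, among them Gli2 in alveolar fibroblast-like cells at -0.03, beside the 1 that turned at 2-fold or more. No paired analysis was possible because each genotype is 1 pool and the sublibraries mix both pools. UMI totals per class set the precision: AT1-like cells, 52 in all, had 1 member with 20 UMIs.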
